A study of Mus musculus with 8 samples.

Results

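The genes described here are 39 interferon response genes, measured in mouse hematopoietic stem cells cultured with eltrombopag or with its vehicle. They were taken by symbol from the platform annotation of the arrays, and all 39 had a probe set, among 19505 named genes in all. The cells came from the bone marrow of mice aged 6 to 10 weeks and were sorted as lineage-negative cells with c-Kit, Sca-1 and CD150 but without CD48. Every culture held stem cell factor at 100 ng/ml and the antibiotic Primocin. The eltrombopag group received the drug at 10 µg/ml for 16 h, and the vehicle group received sterile water for the same time. Eltrombopag is an oral drug that activates the thrombopoietin receptor in humans and binds iron. Each group held 4 Affymetrix arrays, titled as biological replicates 1 to 4. The labels give no strain or genotype and do not say which animals or pools stand behind a replicate, so a p-value here covers only the spread among the arrays, which may be technical.

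Interferons act through paired receptor chains at the cell surface. Type I interferon leads to a complex with Stat2 and Irf9 that binds a DNA element called the ISRE, and the response to interferon gamma runs through an element called GAS. The induced genes restrict viruses, sense foreign RNA and damp the signal again. In mouse bone marrow, interferons are known to drive dormant stem cells into the cell cycle, and stem cells are known to express some interferon-stimulated genes without infection.

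Levels are given on the log2 scale of the arrays, on which a difference of 1 is a 2-fold change. The 8 arrays were closely alike, with correlations across genes from 0.9868 to 0.9933. On the first principal component, which held 25.5% of the variance, arrays 1 and 2 of both groups lay apart from arrays 3 and 4 of both groups. Arrays numbered 3 also differed from the rest in the Y-linked genes Uty, at 7.71 with vehicle and 6.98 with eltrombopag against 3.02 to 3.31 elsewhere, and Kdm5d, at 7.08 and 6.36 against 3.37 to 3.81. Of 12 stem cell markers, 7 lay above 8.67, the mean upper quartile of named genes on the arrays, and 0 lay below the lower quartile of 5.05. The sort marker Kit had a mean of 12.9 and the sort marker Slamf1, which encodes CD150, had 7.04. Of 10 T and NK cell markers, 6 lay below the lower quartile, among them the T cell receptor genes Cd3e (4.91), Cd3d (4.68) and Cd3g (3.73). The other 4 lay between the quartiles, the highest being Nkg7 at 8.55. The remaining lists had smaller shares below the lower quartile. These were 0 of 8 neutrophil, 1 of 7 erythroid, 1 of 7 B cell, 1 of 6 megakaryocyte and 2 of 8 monocyte and macrophage markers. They were 3 of 8 stromal and endothelial, 4 of 10 dendritic cell and 4 of 7 mast cell, basophil and eosinophil markers. Of the megakaryocyte markers, 4 of 6 lay above the upper quartile. In these bulk samples, fewer cells of a type and less RNA per cell cannot be told apart.

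The 39 genes were spread over the whole range of the arrays. Averaged over the 8 arrays, 14 lay above the upper quartile, among them all 4 membrane restriction factors. Another 21 lay between the quartiles. Below the lower quartile were 4: Irf7, Rsad2, Mx1 and Slfn1. How far such dim values follow the transcripts is not known here, and whether probes of close family members (Ifit, Ifitm, Gbp, Oas, Slfn) read each other's transcripts was not tested.

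Promoter sequences were looked up as well. They were not read when the genes were chosen. Since the list consists of interferon response genes, a share of these elements above that of all genes is no separate finding. Promoter sequences of RefSeq (GRCm38.p6) were found for 34 of them, not including Oas2, Mx1, Mx2, Usp18 and Rtp4, and the 250 bases before each annotated start were searched on both strands. The letters that stand for the ISRE here, GAAA followed by any 2 bases and GAAA again, were present in 14 of the 34 genes (41.2%), against 3.46% of all 27025 genes with a promoter. The letters TTCNNNGAA, which stand for GAS and read alike on both strands, were present in 8 of the 34 (23.5%), against 8.13% of all. Both were present in 3: Irf2, Bst2 and Gbp7. A match is a description of letters and not a bound site. The windows below are those of genes on which the results turn, 5′ to 3′ on the gene's own strand, with the matches in capitals. Isg15, Ifit1, Oas3 and Bst2 are shown as genes with matches. Ifitm1, Slfn2 and Cd274 are shown because their values varied most by replicate number, and neither set of letters is in their windows.
Isg15, chr4:156200819-156201068, minus strand: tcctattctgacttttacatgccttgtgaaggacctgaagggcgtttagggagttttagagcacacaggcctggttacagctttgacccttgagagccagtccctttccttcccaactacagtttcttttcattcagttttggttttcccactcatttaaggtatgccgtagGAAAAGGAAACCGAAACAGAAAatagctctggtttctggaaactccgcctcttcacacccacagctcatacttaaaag
Ifit1, chr19:34640639-34640888, plus strand: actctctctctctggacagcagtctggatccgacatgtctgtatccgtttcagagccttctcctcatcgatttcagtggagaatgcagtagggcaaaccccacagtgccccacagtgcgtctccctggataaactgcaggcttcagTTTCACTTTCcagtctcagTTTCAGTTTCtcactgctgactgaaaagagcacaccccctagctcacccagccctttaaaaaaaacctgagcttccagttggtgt
Oas3, chr5:120777660-120777909, minus strand: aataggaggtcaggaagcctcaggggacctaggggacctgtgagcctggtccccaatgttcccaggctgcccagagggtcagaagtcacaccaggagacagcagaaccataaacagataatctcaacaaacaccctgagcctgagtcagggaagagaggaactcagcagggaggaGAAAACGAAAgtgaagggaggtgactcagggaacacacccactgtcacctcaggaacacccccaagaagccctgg
Bst2, chr8:71537473-71537722, minus strand: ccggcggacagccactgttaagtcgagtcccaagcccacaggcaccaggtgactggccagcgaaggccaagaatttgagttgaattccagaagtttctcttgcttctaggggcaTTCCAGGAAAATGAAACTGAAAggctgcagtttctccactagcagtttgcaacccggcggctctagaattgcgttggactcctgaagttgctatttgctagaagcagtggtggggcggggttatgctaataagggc
Ifitm1, chr7:140967826-140968075, plus strand: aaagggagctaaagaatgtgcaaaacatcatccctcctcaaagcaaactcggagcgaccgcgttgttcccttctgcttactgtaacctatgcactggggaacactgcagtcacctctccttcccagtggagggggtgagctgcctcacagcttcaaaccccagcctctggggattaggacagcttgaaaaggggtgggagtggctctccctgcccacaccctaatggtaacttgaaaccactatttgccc
Slfn2, chr11:83064862-83065111, plus strand: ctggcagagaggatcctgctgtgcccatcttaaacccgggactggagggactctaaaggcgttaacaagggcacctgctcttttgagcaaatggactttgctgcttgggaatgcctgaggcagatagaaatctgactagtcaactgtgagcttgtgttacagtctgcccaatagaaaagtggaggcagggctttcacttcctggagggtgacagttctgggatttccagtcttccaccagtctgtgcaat
Cd274, chr19:29367188-29367437, plus strand: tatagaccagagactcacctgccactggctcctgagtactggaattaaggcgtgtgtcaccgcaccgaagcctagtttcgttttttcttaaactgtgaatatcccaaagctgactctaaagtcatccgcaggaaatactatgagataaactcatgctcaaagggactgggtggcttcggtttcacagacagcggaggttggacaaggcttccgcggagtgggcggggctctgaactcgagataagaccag

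In Isg15 there were 3 overlapping ISRE matches between 78 and 57 bases before the start. Ifit1 held 2 on its minus strand, at 104 to 95 and at 85 to 76 bases before the start. In Oas3 there was 1, at 75 to 66 bases. Bst2 had 2 overlapping ISRE matches between 130 and 115 bases, and a GAS match at 136 to 128 bases that overlaps the first of them. Elsewhere in the list, ISRE letters lay between 59 and 30 bases before a start in Ifitm2, Gbp2, Gbp3, Gbp7 and Slfn8, and GAS letters lay 90 to 82 bases before the first start of Irf1.

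**Figure D1:**
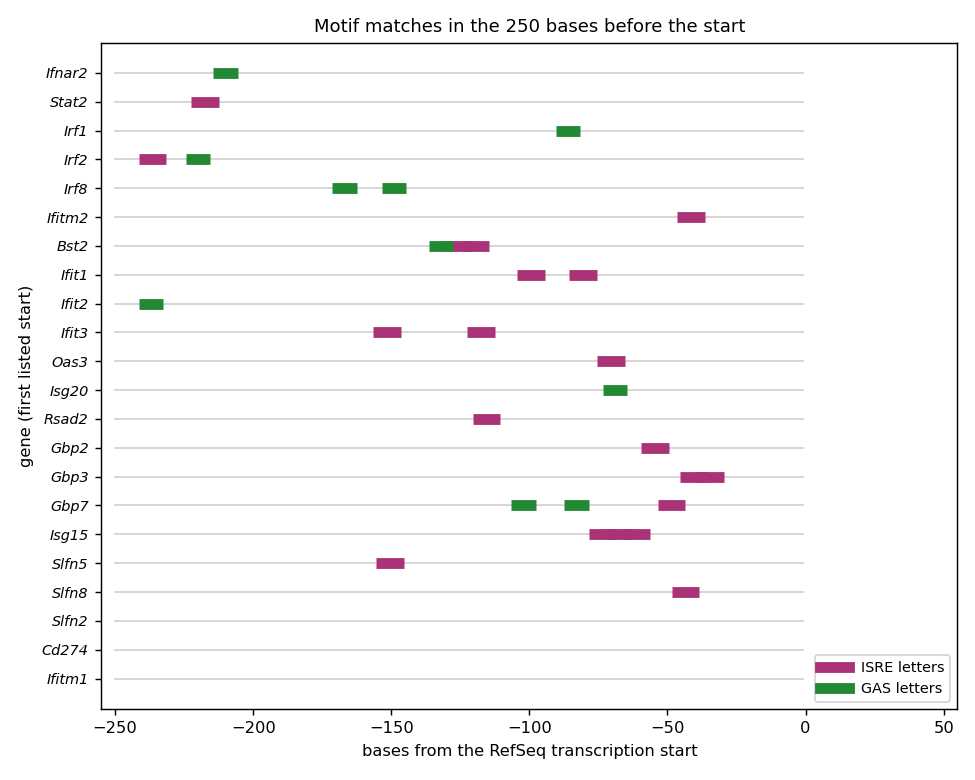
Positions of ISRE letters (purple) and GAS letters (green) in the 250 bases before the first RefSeq start, with distance from the start in bases on the horizontal axis and 1 gene per line. The 19 genes with a match are followed by Slfn2, Cd274 and Ifitm1, whose lines are empty.

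The first comparison asks whether interferon response genes differed between stem cells exposed to eltrombopag and those given vehicle. None passed the test. limma called 0 of the 39 genes at an adjusted p under 0.05, as it called 0% of all genes, and the adjusted p was 0.99978 for each. At an unadjusted p under 0.05 there were 0 of 39, against 3.33% of all genes (1.74% higher and 1.59% lower). In 20 genes the eltrombopag mean was higher and in 19 it was lower, with a median log2 difference of 0.0090 beside 0.0071 over all genes, of which 52.3% were higher. In 0 of the 39 did the 4 eltrombopag values lie entirely above or below the vehicle values, against 2.12% of all genes. Without both arrays numbered 3, which leaves 3 arrays per group, Ifngr2 and Rsad2 did not overlap, 2 of 39 against 7.82% of all genes. The 95% interval of the difference lay within a 2-fold change for 37 of the 39, against 98.7% of all genes, and within a 1.5-fold change for 32, against 88% of all. The exceptions to the 2-fold bound were Slfn2 and Cd274. These results, and those per gene in the next paragraphs, come from a fit with group as the only term. With the replicate number as a block, the intervals of all 39 lay within a 2-fold change, against 99.3% of all genes. With that block, 2 of 39 had an unadjusted limma p under 0.05, against 4.63% of all genes.

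**Figure D2:**
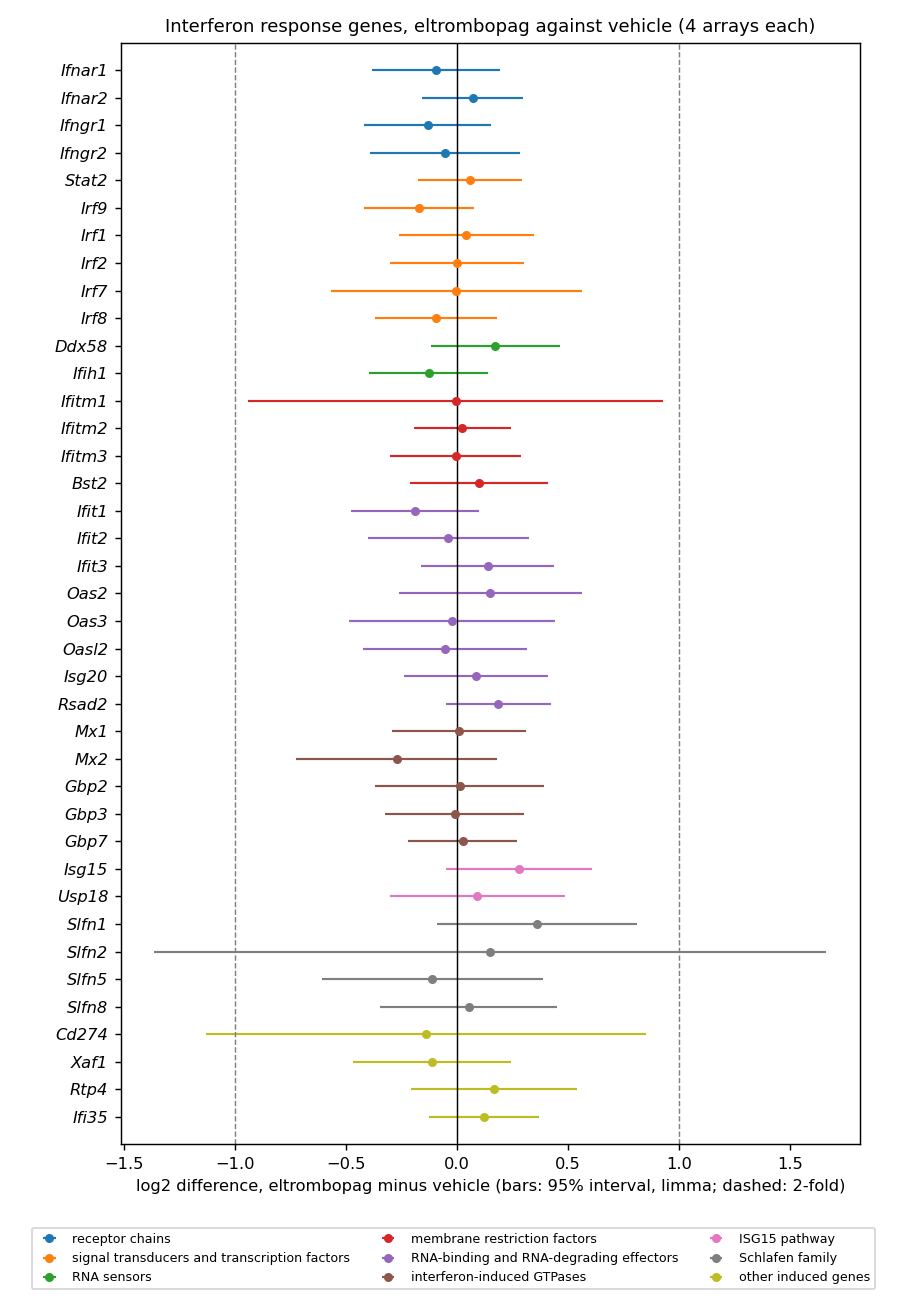
Log2 difference between eltrombopag and vehicle for each of the 39 genes (points) with its 95% interval from limma (bars), 4 arrays per group, coloured by role, with dashed lines at a 2-fold change. Every interval contains 0, and Slfn2, Cd274 and Ifitm1 have the widest ones.

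None of the receptor chains passed. Ifnar1 and Ifnar2, the chains of the type I receptor, differed by -0.095 and 0.070. Ifngr1 and Ifngr2, the chains of the interferon gamma receptor, differed by -0.13 and -0.057. The widest of the 4 intervals was that of Ifngr2, from -0.39 to 0.28.

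Among the transcription factors, Irf9, the DNA-binding part of the type I complex, had the smallest p on the lower side. Its log2 values were 8.59, 8.13, 8.38 and 8.47 on vehicle arrays 1 to 4, and 8.13, 8.23, 8.25 and 8.29 on eltrombopag arrays 1 to 4. The groups overlapped through vehicle array 2, which was about as low as the lowest eltrombopag array. The means were 8.39 ± 0.19 and 8.22 ± 0.071 (SD, n = 4), a difference of -0.17 (SE 0.11, limma adjusted p 0.99978).

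Stat2, the partner of Irf9, had 9.20, 9.32, 9.46 and 9.38 with vehicle and 9.19, 9.50, 9.40 and 9.50 with eltrombopag. The values of the groups interleaved, and the difference was 0.056 (SE 0.11, interval -0.18 to 0.29). Irf7, the factor that amplifies type I interferon production, was dim and varied widely within each group. It had 4.62, 3.85, 4.40 and 4.84 with vehicle and 3.92, 4.85, 4.10 and 4.82 with eltrombopag. Its difference was -0.0045, with an interval from -0.57 to 0.56. Irf1, an activator of interferon genes, differed by 0.042. Its antagonist Irf2 differed by -0.00054, and Irf8, a factor of myeloid and dendritic cell development, by -0.096.

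The RNA sensors lay on opposite sides of 0. Ddx58, which encodes RIG-I, had 8.53, 8.87, 9.03 and 8.53 with vehicle and 8.77, 8.88, 9.01 and 8.99 with eltrombopag. Vehicle arrays 1 and 4 were the low ones, and the difference was 0.17 (SE 0.13, interval -0.12 to 0.46). Ifih1, which encodes the sensor MDA5, had 8.51 on vehicle arrays 1 to 3 and 8.74 on vehicle array 4, and 8.68, 8.19, 8.52 and 8.37 with eltrombopag. Eltrombopag arrays 1 and 3 lay within the vehicle range and arrays 2 and 4 below it, with a difference of -0.13 (SE 0.12, interval -0.40 to 0.14).

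Isg15, a ubiquitin-like protein that is attached to other proteins after interferon, had the smallest unadjusted p of the 39 genes in the fit with group alone (0.0898 in limma). Its values were 5.85, 5.98, 6.27 and 6.14 with vehicle and 5.95, 6.55, 6.35 and 6.49 with eltrombopag. It was higher with eltrombopag in 4 of 4 pairs of the same number, but eltrombopag array 1 lay among the vehicle values. The share of all genes higher in every pair was not counted. The means of Isg15 were 6.06 ± 0.18 and 6.33 ± 0.27 (SD, n = 4), a difference of 0.28 (SE 0.15, interval -0.051 to 0.61, limma adjusted p 0.99978). With the replicate number as a block, the interval ran from 0.010 to 0.54 (unadjusted limma p 0.0438, adjusted p 0.984), and Slfn1 had the smallest p of the 39. Usp18, the protease that removes Isg15 from proteins, differed by 0.091 (SE 0.18).

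The RNA-binding and RNA-degrading effectors were evenly divided, 4 higher and 4 lower. Ifit1, which binds foreign RNA, had 5.58, 6.06, 5.80 and 6.16 with vehicle and 5.76, 5.76, 5.61 and 5.71 with eltrombopag. The 4 eltrombopag values lay close together, within the vehicle range, and the difference was -0.19 (SE 0.13, interval -0.48 to 0.098). Its relatives Ifit2 and Ifit3 differed by -0.039 and 0.14. Rsad2, which encodes the antiviral enzyme viperin, had 4.84, 4.82, 4.92 and 4.60 with vehicle and 4.99, 5.16, 4.90 and 4.87 with eltrombopag. Its groups overlapped through vehicle array 3, and the difference was 0.18 (SE 0.11, interval -0.053 to 0.42). The oligoadenylate synthetases Oas2 and Oas3 differed by 0.15 and -0.024, their relative Oasl2 by -0.055, and the exonuclease Isg20 by 0.084.

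Of the interferon-induced GTPases, Mx2 had the largest difference. It had 5.06, 5.43, 5.49 and 6.10 with vehicle and 5.19, 5.02, 5.18 and 5.61 with eltrombopag. Vehicle array 4 was high and the other vehicle arrays overlapped the eltrombopag values, with a difference of -0.27 (SE 0.20, interval -0.72 to 0.18), which was -0.080 without that array. Mx1 differed by 0.0090, and the guanylate-binding proteins Gbp2, Gbp3 and Gbp7 by 0.011, -0.012 and 0.025.

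In the Schlafen family, whose member Slfn2 is known to hold mouse T cells and monocytes in a resting state, Slfn1 had the largest difference of all 39 genes over the 8 arrays. It was dim, with 4.51, 3.87, 5.002 and 4.70 with vehicle and 4.97, 4.69, 4.96 and 4.91 with eltrombopag. Vehicle array 2 was low, and vehicle array 3 was higher than every eltrombopag array. The difference was 0.36 (SE 0.20, interval -0.090 to 0.81, limma adjusted p 0.99978), and 0.14 without vehicle array 2. Slfn5 and Slfn8 differed by -0.11 and 0.051. The remaining induced genes Xaf1, Rtp4 and Ifi35 differed by -0.11, 0.16 and 0.12, and among the membrane factors Bst2 (tetherin) differed by 0.098, Ifitm2 by 0.023 and Ifitm3 by -0.0070.

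Other genes of the interferon pathway likewise did not pass. Of 150 further pathway genes, 129 were measured, of which 77 were higher and 52 lower with eltrombopag, with a median log2 difference of 0.026. Over all genes 52.3% were higher, with a median of 0.0071. limma called 0 of the 129 in either direction, as it called 0% of all genes. Tdrd7 (-0.36, SE 0.14), a Tudor domain protein, was the only 1 of the 129 at an unadjusted limma p under 0.05 (0.0314), against 3.33% of all genes. The next on the lower side was Ifitm5 (-0.25, SE 0.14), and the smallest p-values on the higher side were those of Slfn10-ps (0.27, SE 0.14) and Tlr3 (0.38, SE 0.21), a sensor of double-stranded RNA. The kinases Jak1 and Tyk2, which act below the receptors, differed by -0.072 and -0.035, and the factor Irf3 by 0.059. The genes of interferon ligands were higher in 7 of 10 cases (median 0.074), antigen presentation genes in 11 of 15 (0.026), negative regulators in 5 of 13 (-0.054) and ISG15-conjugating enzymes in 3 of 3 (0.22). Genes of nucleic acid sensing were higher in 8 of 14 (0.033), further antiviral effectors in 23 of 40 (0.023), further GTPases in 5 of 8 (0.037), further Schlafen genes in 3 of 5 (0.0031), kinases, STATs and other IRFs in 5 of 9 (0.026), and induced chemokines and cytokines in 7 of 12 (0.063). Ly6a was not analysed here.

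The second comparison sets the arrays titled 1 and 2 against those titled 3 and 4 in both groups. This division was taken up after the first principal component had shown it, so it is described without a test. The genes that encode Slfn2, the immune checkpoint ligand Cd274 (PD-L1) and the membrane restriction factor Ifitm1 were much higher in numbers 1 and 2. This was so with vehicle and with eltrombopag.

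Slfn2 had 8.97 and 9.01 on vehicle arrays 1 and 2 against 6.95 and 6.73 on vehicle arrays 3 and 4. With eltrombopag it had 9.47 and 8.85 against 7.16 and 6.79. All 4 arrays of numbers 1 and 2 lay above all 4 arrays of numbers 3 and 4, with a gap of 1.69 between the nearest values. The means were 9.07 ± 0.27 and 6.91 ± 0.19 (SD over 4 arrays), a log2 difference of 2.16 or 4.48-fold. It was 2.14 within the vehicle arrays and 2.18 within the eltrombopag arrays. Arrays of the same number were treated as pairs across the groups, so these values, and the 4 arrays of each set, are not independent of each other.

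Cd274 had 9.34 and 9.35 on vehicle arrays 1 and 2 against 8.01 and 7.88 on vehicle arrays 3 and 4. With eltrombopag it had 9.24 and 9.17 against 8.04 and 7.56. The gap between the nearest values was 1.13, and the difference of the means was 1.40 (2.64-fold), with 1.40 in each group. Ifitm1 had 11.85 and 11.88 against 10.68 and 10.62 with vehicle, and 12.05 and 11.90 against 10.56 and 10.49 with eltrombopag. Within numbers 1 and 2 and within numbers 3 and 4 its SD was 0.090 and 0.080, while the sets differed by 1.33 (2.52-fold).

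**Figure D3:**
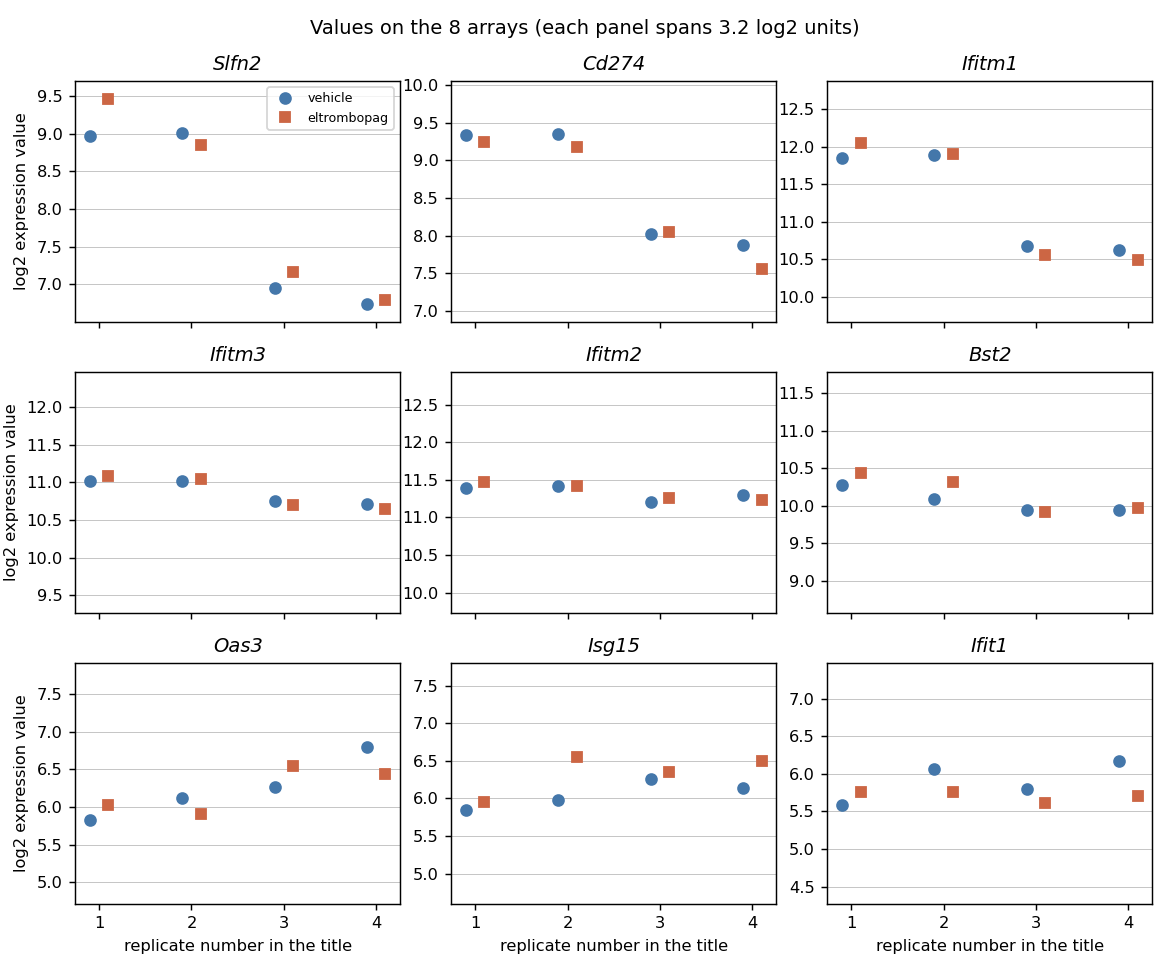
Log2 expression values of 9 of the genes on the 8 arrays, by the replicate number in the title (horizontal axis), with vehicle as circles and eltrombopag as squares and the same span of 3.2 log2 units in each panel. Slfn2, Cd274 and Ifitm1 step down between numbers 2 and 3 in both groups, while Isg15 and Ifit1 do not.

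Of all genes, 0.374% differed by over 1 between these sets of numbers, and 3 of the 39 did. A difference of over 0.3 in size was present in 10 of the 39, against 10.4% of all genes. By the size of this difference Slfn2 was 11th, Cd274 31st and Ifitm1 37th of 19505 genes. The arrays of the sets did not overlap in 9 of the 39 genes (23.1%), against 7.24% of all genes, with 7 higher in numbers 1 and 2 (background 3.77%) and 2 lower (background 3.47%). The genes and the division were both chosen with earlier results of these data known, so these shares describe the list and test nothing. The shares of all genes were not matched for level. The 39 were not all shifted to the same side, as 17 were higher and 22 lower in numbers 1 and 2, with a median of -0.062 beside 0.0013 over all genes, of which 50.3% were higher.

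The 4 membrane restriction factors were all higher in numbers 1 and 2 without overlap. After Ifitm1 came Bst2, with 10.28, 10.09, 10.44 and 10.32 in numbers 1 and 2 of vehicle and then eltrombopag, against 9.94, 9.95, 9.92 and 9.97 in numbers 3 and 4, a difference of 0.33. Ifitm3, a close relative of Ifitm1 that blocks virus entry, had 11.01, 11.02, 11.09 and 11.04 against 10.76, 10.72, 10.71 and 10.65, a difference of 0.33. Ifitm2 differed by 0.17. The Ifitm genes thus moved by unequal amounts on the same arrays. The Schlafen genes did not follow Slfn2: the difference was -0.38 for Slfn1, -0.36 for Slfn5 and 0.13 for Slfn8, each with overlapping arrays, and without vehicle array 2 it was -0.17 for Slfn1.

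The receptor chains Ifnar2 (0.17) and Ifngr1 (-0.25) also did not overlap between the sets, on opposite sides. Oas3 was the gene with the largest shift to the lower side. It had 5.83 and 6.12 on vehicle arrays 1 and 2 against 6.26 and 6.80 on vehicle arrays 3 and 4, and 6.02 and 5.91 against 6.55 and 6.43 with eltrombopag. Its difference was -0.54, with a gap of 0.15 between the nearest values. Mx2 differed by -0.42 with arrays that overlapped, and by -0.25 without vehicle array 4. Isg15 differed by -0.23 with overlap, with -0.29 in the vehicle arrays and -0.17 in the eltrombopag arrays. For Ifit2, Ifit3, Oas2 and Usp18, chosen after their values were seen, the groups went different ways. Within the vehicle arrays these 4 differed by 0.049, 0.0065, 0.12 and 0.12, and within the eltrombopag arrays by -0.52, -0.48, -0.58 and -0.59.

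**Figure D4:**
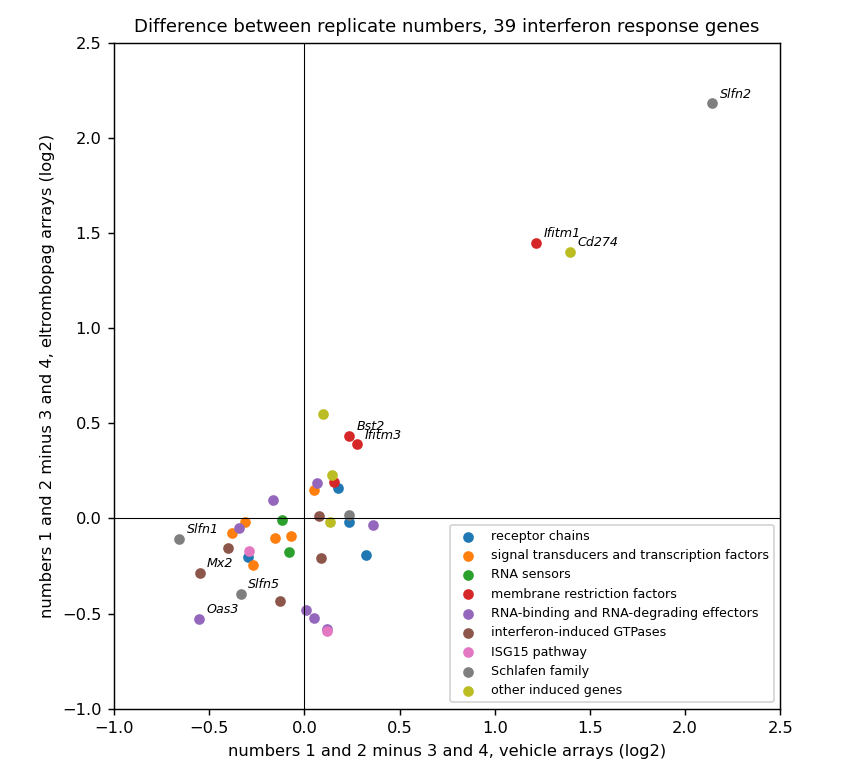
Difference between numbers 1 and 2 and numbers 3 and 4 in log2 units, in the vehicle arrays (horizontal axis) and in the eltrombopag arrays (vertical axis), with 1 point per gene coloured by role. Slfn2, Cd274 and Ifitm1 lie far from the other 36 genes, which all lie between -0.66 and 0.55 on both axes.

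Read against the promoter search, the 14 genes with ISRE letters had differences from -0.54 to 0.33, with 10 lower and 4 higher in numbers 1 and 2 and a median of -0.18. Among the 20 genes with a promoter but without these letters, 11 were higher and 9 lower, with a median of 0.061. The difference between these medians was not tested. Nothing about a factor can be read from the empty windows of Slfn2, Cd274 and Ifitm1.

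Other pathway genes showed shifts on both sides too. Of the 129, 17 did not overlap between the sets (background 7.24%), with 4 higher and 13 lower in numbers 1 and 2. Socs1, an inhibitor of JAK kinases induced by interferon, had 7.11, 6.55, 7.22 and 6.79 in numbers 1 and 2 of vehicle and then eltrombopag, against 5.93, 6.04, 6.05 and 5.57 in numbers 3 and 4. Its difference was 1.02, the largest of the 129. Tnfsf10, the death ligand TRAIL, differed by 0.68. On the lower side the GTPases Iigp1 and Tgtp2 differed by -0.74 and -0.50, and Uba7, the enzyme that activates Isg15, by -0.36. These 5 were chosen after their values were seen.

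Markers of cell types were compared between the same sets, as the mean deviation of a list from its genes' means. For stem cell markers it ran from -0.176 to 0.0351 in numbers 1 and 2 and from 0.0384 to 0.111 in numbers 3 and 4. Of these 12 markers, 5 did not overlap, against 7.24% of all genes. In numbers 1 and 2, 4 of the 5 were lower and Runx1 (0.24) was higher. Erythroid markers ran from -0.212 to -0.0726 and from -0.0265 to 0.469, with 1 of 7 without overlap, the heme synthesis enzyme Alas2 (-1.22). Of the erythroid markers, 5 were lower in numbers 1 and 2 and 2 were higher, Tfrc (0.13) and Epor (0.030). Neutrophil markers ran from -0.486 to 0.143 and from -0.254 to 0.571 with 0 of 8. Of these 8, 6 were lower in numbers 1 and 2 and 2 were higher, Elane (0.42) and Ltf (0.085). Among the lower ones, Ngp (-1.46), S100a8 (-1.38) and Mmp8 (-1.33) differed with overlap by sizes like those of Cd274 and Ifitm1. Their values spread widely within numbers 3 and 4, with SDs of 1.34, 0.70 and 1.45. T and NK cell markers ran from -0.015 to 0.0638 and from -0.161 to 0.0535, with 0 of 10. Of the remaining lists, 2 of 6 megakaryocyte markers, 1 of 8 monocyte and macrophage markers and 1 of 10 dendritic cell markers did not overlap, the last being Bst2, which is itself 1 of the 39 genes. The count was 0 of 8 for stromal and endothelial, 0 of 7 for B cell and 0 of 7 for mast cell, basophil and eosinophil markers. Between eltrombopag and vehicle, 42 of all 83 markers were higher and limma called 0. The part of these markers in the shift of Slfn2, Cd274 and Ifitm1 was not tested. Without both arrays numbered 3, the differences were 2.31 for Slfn2, 1.56 for Cd274 and 1.37 for Ifitm1, and 13 of the 39 genes did not overlap, against 17.9% of all genes.

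The intervals of the drug comparison were widest for these 3 genes. The plain fit gave Slfn2 a difference of 0.15 between eltrombopag and vehicle, with an interval from -1.36 to 1.66. With the replicate number as a block, the interval ran from -0.14 to 0.44. For Cd274 the difference was -0.14, with -1.13 to 0.85 in the plain fit and -0.37 to 0.086 with the block. Ifitm1 differed by -0.0058, with -0.94 to 0.93 and then -0.24 to 0.22. With the block, the intervals of all 39 genes lay within a 2-fold change, against 99.3% of all genes. None of the 39 passed, and Isg15 and Slfn1 had an unadjusted limma p under 0.05 (0.0438 and 0.0409, adjusted p 0.984 for each), against 4.63% of all genes.

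**Figure D5:**
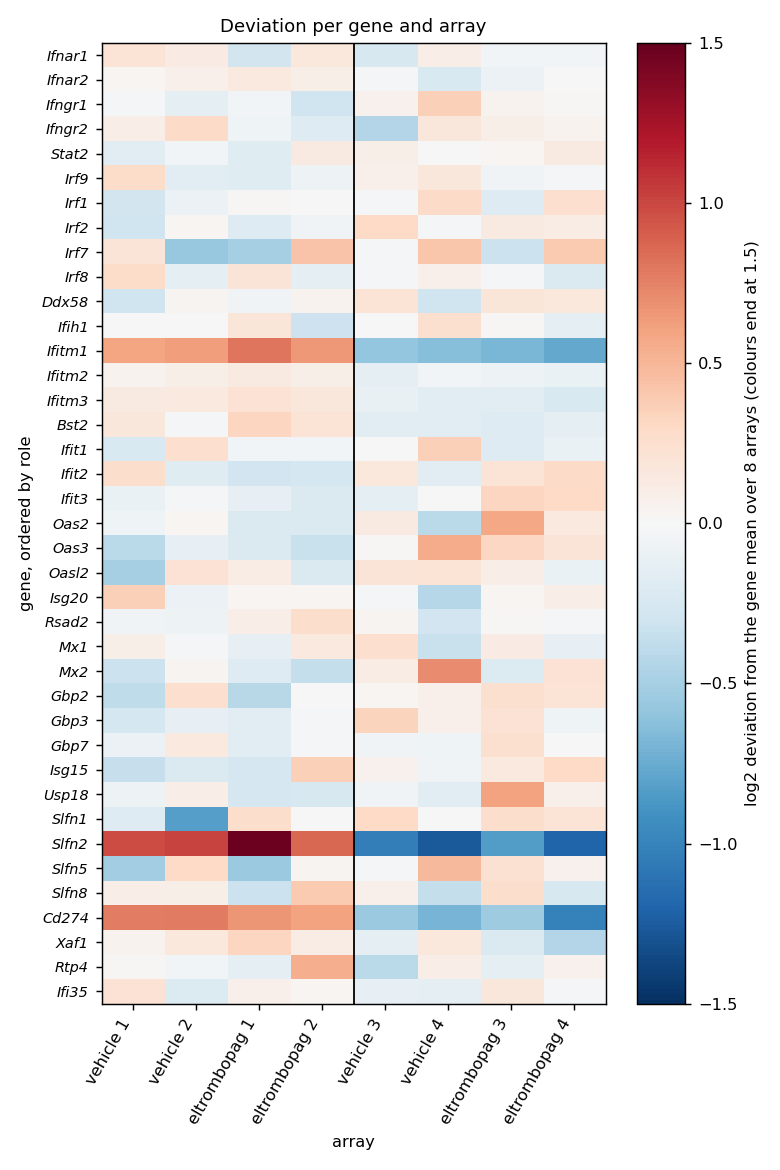
Deviation of each gene from its own mean over the 8 arrays in log2 units (colour, ending at 1.5 on either side), with genes in rows by role and arrays in columns, numbers 1 and 2 left of the black line and numbers 3 and 4 right of it. Slfn2, Cd274 and Ifitm1 change colour at the line, and in no gene do the 4 vehicle arrays stand apart from the 4 eltrombopag arrays.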

How the data were processed

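Every array had a log2 value for each probe set, as deposited by the authors. For these, RMA, oligo and limma are named in the submitters' processing notes, with no version. RMA corrects background, gives all arrays the same distribution and combines probes, so it removes differences in total RNA. Per the labels' protocols, about 10 ng of RNA was amplified by priming from its 3′ end. A genome build for the probe sets was not given in the sources used here. Of 22206 probe sets, 19572 had 1 gene symbol, 0 several and 2634 none. They gave 19505 genes, with the probe set of highest mean for the 55 genes with several, none of them among the 39. Pairs of arrays shared 0 equal values. No signal over background is given here, and the number of arrays limits the precision.

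Groups and numbers came from the titles. Groups were compared with limma 3.58.1 under R 4.3.3 (lmFit, eBayes, group as the only term, two-sided, Benjamini-Hochberg over all genes, threshold 0.05), tested on simulated data. Deviations from the group means correlated at 0.241, 0.294, 0.192 and 0.142 for arrays of the same number 1 to 4, all over 0.1. For different numbers they ran from -0.208 to 0.171. Arrays of the same number were taken as pairs because their values were all over 0.1, and the labels state no pairing. The highest value for different numbers (0.171) lay above that of number 4 (0.142). These correlations cannot tell pairs from a division of the numbers into sets, so the pairing is an assumption. In the fits, the pairing entered only the one with the replicate number as a block. The main fit left it out, so its SEs, intervals and p-values are unpaired. The genes, lists and division of numbers were chosen with earlier results of these data known. Of 150 other pathway genes 129 matched, 2 through a synonym, and of 95 cell type markers 83 matched. Named with full values were the 4 genes with the smallest p in each direction, Stat2, Irf9, Irf7, Isg15, Ifit1 and Ifitm3, and the 6 with the largest shift between numbers. Named besides were Jak1, Tyk2, Irf3 and the 2 other pathway genes with the smallest p in each direction. Bst2, Ifitm2, Ifnar2, Ifngr1, Runx1, Alas2, Tfrc, Epor, Elane, Ltf, Ngp, S100a8, Mmp8 and Nkg7 were described after their values were seen. Alternatives were a filter on dim genes, other normalizations, the mean of probe sets, the block, a term for the sets of numbers, array weights, a trended robust fit and leaving out arrays.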

Additional observations from a re-analysis of the deposited data

Results flagged for a closer look

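Each of the 39 genes was searched, in either group, for 1 array lying far from the remaining 3. Among these 78 sets of 4 values 5 stood out, and about 3.9 (1 in 20) would do so by chance. Ifih1 had 8.74 on vehicle array 4 against 8.51 on each of the others, with a gap of 0.987 of the range. Oasl2 had 6.59 on vehicle array 1 against 7.28 to 7.30, with a gap of 0.969 of the range. Isg20 had 8.15 on eltrombopag array 4 against 8.07 to 8.08 (0.973), a group of small range. Slfn8 had 8.41 on vehicle array 4 against 8.84 to 8.87 (0.945), and Gbp7 had 9.63 on vehicle array 2 against 9.40 to 9.43 (0.869).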

How the results depend on the processing

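The count of called genes was 0, among the 39 and over all genes, as reported and in all 19 alternatives. The replicate block changed no call, with adjusted p values from 0.984 upwards. The median difference of the 39 genes was -0.010 in numbers 1 and 2 only and 0.031 in numbers 3 and 4 only, and lay between -0.030 and 0.050 when 1 array was left out. The count of genes whose drug groups did not overlap was 2 without both arrays numbered 3 (Ifngr2 and Rsad2, against 7.82% of all genes). It lay between 0 and 4 when 1 array was left out, with the highest count without vehicle array 1 (Ifit1, Oasl2, Isg20 and Ifi35, against 5.41% of all genes). It was 1 without vehicle array 2 (Irf9, against 4.48%), 2 without vehicle array 3 (Ifngr2 and Rsad2, against 4.25%) and 1 without eltrombopag array 1 (Isg15, against 4.14%). Fewer arrays overlap less often. The count that did not overlap between the sets of numbers was 10 to 13 when 1 array was left out, against 10.4% to 11.1% of all genes.

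Of the 39 drug differences, none of which passed, 14 kept their sign in every setting and 25 did not. With quantile normalization Irf2 was at 0.0013, Ifitm1 at 0.013 and Mx1 at -0.011. With array weights Irf7 was at 0.035, Ifitm1 at 0.11, Ifitm3 at 0.018 and Gbp2 at -0.017. Without both arrays numbered 3, Irf2 was at 0.058, Irf7 at 0.091, Ifitm1 at 0.030, Ifitm3 at 0.0084, Gbp2 at -0.053, Gbp3 at 0.026, Gbp7 at -0.065 and Usp18 at -0.099. In numbers 1 and 2 only, Irf2 was at 0.013, Irf7 at 0.15, Ifitm1 at 0.11, Ifitm3 at 0.049, Ifit3 at -0.11, Oas2 at -0.20, Oasl2 at 0.093, Isg20 at -0.11, Mx1 at -0.021, Gbp2 at -0.14, Gbp3 at 0.11, Gbp7 at -0.12, Usp18 at -0.26, Slfn8 at -0.057 and Xaf1 at 0.11. In numbers 3 and 4 only, Ifnar1 was at 0.032, Ifngr2 at 0.20, Irf1 at -0.11, Bst2 at -0.0017 and Ifit2 at 0.25. The cause was not tested.

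Both signs occurred for 22 genes when 1 array at a time was left out. The ranges were -0.40 to 0.17 for Cd274, -0.32 to 0.57 for Slfn2, -0.27 to 0.25 for Ifitm1, -0.12 to 0.15 for Gbp2, -0.10 to 0.099 for Gbp3, -0.051 to 0.085 for Gbp7 and -0.14 to 0.052 for Ifit2. They were -0.019 to 0.059 for Ifitm2, -0.079 to 0.068 for Ifitm3, -0.21 to 0.028 for Ifngr2, -0.042 to 0.15 for Irf1, -0.10 to 0.10 for Irf2, -0.20 to 0.16 for Irf7 and -0.043 to 0.22 for Isg20. They were -0.10 to 0.095 for Mx1, -0.019 to 0.25 for Oas2, -0.16 to 0.16 for Oas3, -0.23 to 0.0064 for Oasl2, -0.30 to 0.053 for Slfn5, -0.073 to 0.17 for Slfn8, -0.096 to 0.19 for Usp18 and -0.24 to 0.015 for Xaf1. The shift between the sets of numbers lay between 2.03 and 2.24 for Slfn2, 1.29 and 1.46 for Cd274, 1.29 and 1.36 for Ifitm1, -0.62 and -0.45 for Oas3, -0.56 and -0.25 for Mx2, and -0.53 and -0.17 for Slfn1. Of the genes with the smallest p, the drug difference lay between 0.14 and 0.52 for Slfn1, 0.20 and 0.41 for Isg15, 0.12 and 0.23 for Rsad2, 0.10 and 0.27 for Ddx58, -0.26 and -0.11 for Irf9, -0.30 and -0.10 for Ifit1, -0.21 and -0.045 for Ifih1, and -0.43 and -0.080 for Mx2.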

Other observations

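Some effector genes had drug differences of opposite sign in the sets of numbers, chosen after their values were seen and not tested. The difference between eltrombopag and vehicle was -0.20 in numbers 1 and 2 and 0.50 in numbers 3 and 4 for Oas2, -0.26 and 0.45 for Usp18, -0.32 and 0.25 for Ifit2, and -0.11 and 0.38 for Ifit3. The reverse order of signs also occurred, with 0.093 and -0.20 for Oasl2 and 0.11 and -0.34 for Xaf1. For Isg15 the difference was 0.34 and 0.22, of 1 sign in both sets. The share of all genes with opposite signs was not counted, so no shared pattern of effector genes can be read from these values.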
